A study of Mus musculus with 28 samples.

Results

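Of the 3147 rows of the RNA table, 40 carry names from gene families that copy DNA and then fold and separate the chromosomes. They were chosen by name alone: MCM helicase subunits, DNA polymerases with their clamp, clamp loaders, single-strand binding proteins and flap nuclease, ribonucleotide reductase, topoisomerase II, Dnmt1, Mki67, SMC and condensin subunits, Cdk1, kinesins, and alpha- and beta-tubulins. The rule uses names and no measured value, though it was drawn up with earlier results of these data known. The same names find 74 of the 6250 rows of a table of ribosome footprints. The cells were bone marrow-derived dendritic cells of female C57BL/6J mice aged 6 to 8 weeks, grown from marrow with GM-CSF and given either 100 ng/ml of LPS, a bacterial cell wall component, or a mock stimulus without LPS. RNA libraries were made at 0 h and, in each arm, at 1, 2, 4, 6, 9 and 12 h, which gives 13 groups of 2 libraries. In both arms the culture medium was exchanged at 0 h for one with other isotope-labelled amino acids, so mock cells also had new medium. The 2 footprint libraries came from unstimulated cells. Whether a group's 2 libraries stem from different cultures or mice is not in the labels. The p-values therefore rest on how far these libraries differ, and that difference may be technical. Values are in TPM (here a share of the transcripts of the listed genes, scaled for transcript length). Pairs of values are given for replicates 1 and 2 in that order. In bulk RNA, fewer cells of a type and less RNA per cell cannot be told apart.

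DNA replication starts when a ring of MCM subunits unwinds the double strand. RPA then covers the single strands, RFC loads the sliding clamp PCNA, and the polymerases copy behind it. Later, condensin and cohesin, built on SMC proteins, compact and hold the chromosomes, Cdk1 drives entry into mitosis, and tubulins with kinesin motors build the spindle. Many of these genes are transcribed in dividing cells through E2F factors, and dendritic cell cultures with GM-CSF hold dividing precursors beside cells that have stopped dividing. Tubulins and most kinesins also serve transport and shape in cells that do not divide.

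The stretches of DNA in front of these genes are shown first, for members with low RNA after LPS (Mcm7, Mcm5, Mcm2 and Cdk1) and for 1 member whose late change did not pass the test (Kif3a). Each is the 250 bases before the RefSeq start of the gene on build GRCm38.p6, 5′ to 3′ on the strand of the gene. Capitals mark matches on either strand to the E2F core (TTCCCGC or TTGGCGC), the CHR element (TTTGAA), known from mitotic promoters, and the CCAAT box (CCAAT).
Mcm7: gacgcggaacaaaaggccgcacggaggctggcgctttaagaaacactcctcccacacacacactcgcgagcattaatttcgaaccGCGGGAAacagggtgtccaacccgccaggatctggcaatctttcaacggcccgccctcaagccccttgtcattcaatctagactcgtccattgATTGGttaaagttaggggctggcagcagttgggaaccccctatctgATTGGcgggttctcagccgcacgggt
Mcm5: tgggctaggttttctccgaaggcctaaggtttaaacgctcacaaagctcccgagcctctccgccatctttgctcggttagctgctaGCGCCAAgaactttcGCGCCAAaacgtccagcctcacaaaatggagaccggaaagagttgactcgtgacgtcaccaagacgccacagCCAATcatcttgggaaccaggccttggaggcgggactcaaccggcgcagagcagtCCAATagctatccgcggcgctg
Mcm2: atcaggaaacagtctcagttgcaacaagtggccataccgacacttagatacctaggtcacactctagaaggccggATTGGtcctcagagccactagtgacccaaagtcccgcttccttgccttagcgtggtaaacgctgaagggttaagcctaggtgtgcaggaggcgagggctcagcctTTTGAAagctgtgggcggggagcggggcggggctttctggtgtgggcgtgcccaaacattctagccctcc
Cdk1: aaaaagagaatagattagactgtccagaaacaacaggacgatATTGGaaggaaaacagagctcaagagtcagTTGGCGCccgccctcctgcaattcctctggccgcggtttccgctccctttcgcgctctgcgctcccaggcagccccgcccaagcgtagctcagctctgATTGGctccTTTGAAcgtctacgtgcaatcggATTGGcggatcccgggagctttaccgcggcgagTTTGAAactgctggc
Kif3a: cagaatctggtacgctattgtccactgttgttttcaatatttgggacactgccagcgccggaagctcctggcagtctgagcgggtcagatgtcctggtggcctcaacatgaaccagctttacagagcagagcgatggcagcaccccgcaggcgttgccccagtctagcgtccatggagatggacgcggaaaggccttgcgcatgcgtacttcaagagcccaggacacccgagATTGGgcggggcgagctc
They lie at chr5:138171884-138172133 on the minus strand (Mcm7, 1 of its 2 starts), chr8:75109259-75109508 on the plus strand (Mcm5), chr6:88898781-88899030 on the minus strand (Mcm2), chr10:69352913-69353162 on the minus strand (Cdk1) and chr11:53567119-53567368 on the plus strand (Kif3a). Mcm5 holds E2F cores that begin at positions -164 and -149, counted back from the start, Mcm7 holds 1 at -165 and Cdk1 1 at -178. Cdk1 also holds CHR elements at -71 and -15. Mcm2 holds a CHR element at -70 and a CCAAT box but no E2F core in this window. Of the motifs marked here Kif3a holds a CCAAT box alone.

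Over the window of 300 bases, from 250 before to 50 after the start, 34 of the 40 members could be matched, 1 of them by a synonym, and they stand for 35 genes. An E2F core lay in 19 of these 35 (54.3%), against 15.2% of 2580 other genes of the RNA table and 7.79% of all 27025 genes with a window. In the 250 bases before the start alone the shares were 31.4%, 13.3% and 6.45%. The core was found in 17 of the 29 matched genes that fell late after LPS and in 2 of the other 6. These 6 are few, and Tuba1a and Tuba3a among them come from 1 merged row. Mcm4, Rfc2, Smc4, Kif13b, Kif5b and Tubb6, the member that rose late, were not matched. CCAAT boxes lay in 74.3% of the member genes (42.6% and 41.1% of the other groups), GC boxes (GGGCGG) in 77.1% (70.9% and 38.2%) and CHR elements in 20% (13.5% and 20.2%). A CCAAT box read on the reverse strand shares letters with the second form of the E2F core. A match describes letters only, and binding was not measured here.

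All columns sum to 1000000 TPM, so each value is relative to the other listed genes. After LPS more listed genes fell than rose: late in the course (the mean of 6 h, 9 h and 12 h) 47.7% of all rows fell and 15.5% rose, and the median of all rows was -0.43 on the log2 scale. Rescaling each library to its median ratio moved that median to -0.03 and the shares to 25.9% and 26.2%. Member values after this rescaling are therefore given beside the deposited ones. Of 11 dendritic cell markers 5 were listed (Cd74, Cst3, H2-Aa, H2-Ab1 and Itgax), and none was called late (adjusted p 0.24 to 0.49). Their late changes were 0.48, 0.31, 0.19, 0.20 and -0.29 in that order. Their summed level was 11316 to 21400 TPM in late mock and 15172 to 25082 TPM in late LPS libraries. Of the granulocyte markers 7 of 13 were listed, with sums of 2492 to 7193 TPM and 1165 to 3043 TPM. In this list S100a8 and S100a9 fell (-1.54 and -1.42) and Lcn2 rose (2.06). Of 7 listed macrophage and monocyte rows Csf1r and Mrc1 fell and Cd14, Fcgr1 and Ly6c1;Ly6c2 rose, with late sums of 11174 to 39763 TPM in mock and 8106 to 28437 TPM in LPS. The 1 erythroid marker listed, Car2, rose (2.89). No listed marker was at 0 in any library, and no stem and progenitor or lymphocyte marker was listed. Marker values are on the deposited scale and were not read after rescaling, so they do not show equal cell shares between arms. The part of these markers in the results below was not tested.

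Most of the 40 genes had less RNA in LPS than in mock cells from 4 h on. All members were measured above 1 TPM in every library, with means from 7.78 to 819 TPM (median 55.2 against 72.9 over all rows). The minimum of 1 TPM in 2 libraries thus removed none. The RNA table itself lists only part of these genes: 37 of the 74 footprint rows are in it under the same name. At 1 h no member passed the limma test (adjusted p under 0.05 over all rows; 0.794% of all rows fell and 3.27% rose), while 9 members and 572 rows had an unadjusted p under 0.05. At 2 h 10 members fell (8.04% of all rows), at 4 h 26 (29.2%), at 6 h 23 (30%), at 9 h 26 (30%) and at 12 h 26 (26.8%). None rose at these times, where 6.39%, 8.74%, 11.2%, 10.1% and 10% of all rows did. After median-ratio rescaling 7, 21, 17, 19 and 19 members fell at these times (5.18%, 12.9%, 14.7%, 12.8% and 13.9% of all rows). On that scale Rfc3 fell at 1 h and rose at 4 h and 6 h (1.11 and 1.18), and Tubb6 rose at 9 h and 12 h (1.31 and 1.34). The median log2 difference of the members was -0.23 at 1 h, -0.55 at 2 h and between -1.19 and -1.24 from 4 h to 12 h, where the median of all rows lay between -0.39 and -0.46. The LPS mean was under 50% of the mock mean for 1 member at 1 h (Rfc3; 1.56% of all rows), 8 at 2 h (6.74%), 25 at 4 h (22.5%), 27 at 6 h (24.4%), 25 at 9 h (22.1%) and 25 at 12 h (20%). Both LPS libraries lay below both mock libraries for 20, 26, 30, 31, 29 and 32 members at the 6 times (25.3%, 35.4%, 58.2%, 50.4%, 47.9% and 49.3% of all rows). Such separated pairs were thus common among all rows too. At the 3 late times together all 6 LPS libraries lay below all 6 mock libraries for 27 members (30.2% of all rows).

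With the replicate number as a block in the fit, the members called at 1 h became 7 (Mcm2, Mcm4, Rfc2, Rfc3, Tubb2a and Tubb5 fell and Mki67 rose; 6.1% of all rows fell and 11.2% rose). At 2 h they became 19 (18 fell and Mki67 rose; 16.7% and 11%). From 4 h to 12 h the blocked fit had 29, 33, 32 and 30 members that fell (44.9%, 42.9%, 43.3% and 39.1% of all rows), and Kif13b rose at 4 h and Tubb6 at 9 h and 12 h (12.1%, 13.6% and 14.1%). Single libraries also mattered at these times: 5 members were called at 1 h without LPS replicate 1, and 6 and 5 at 2 h without mock replicate 2 and without LPS replicate 2.

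**Figure D1:**
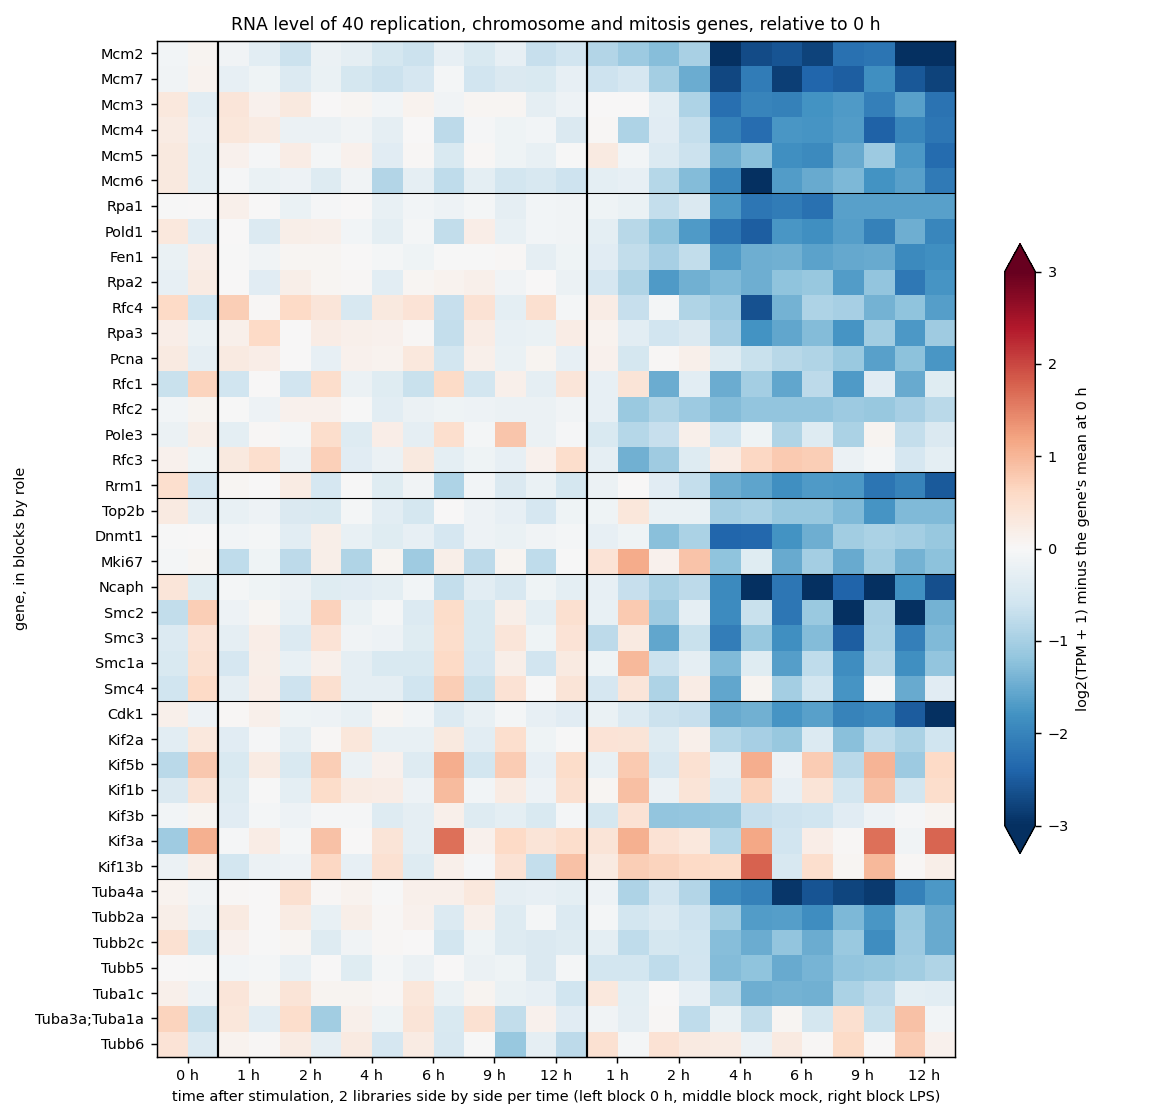
Colour shows log2(TPM + 1) of each gene in each library minus its mean at 0 h, with genes in rows by role and the 2 libraries of each time side by side (values beyond 3 in size take the end colour). The mock block is mostly pale, apart from single libraries of Kif3a and Kif5b, while in the LPS block most rows turn blue from 4 h on, with 5 kinesins, Rfc3, Tuba3a;Tuba1a and Tubb6 as exceptions (of these Kif3b is blue at 2 h and 4 h).

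Over the late times 31 of 40 members fell and 1 rose (47.7% and 15.5% of all rows), with a median of -1.18. After median-ratio rescaling 26 fell and 1, Tubb6, rose (25.9% and 26.2% of all rows), with a median of -0.78 against -0.03 for all rows. Mock cells moved less. Against 0 h the member median was -0.11 in late mock and -1.34 in late LPS cells (-0.07 and -0.49 for all rows). In late mock cells the 6 MCM genes ran from -0.50 to -0.05 and Rrm1 stood at -0.38. Between 0 h and the late mock times limma called 0 members and 0 of 3147 rows, with an unadjusted p under 0.05 for 1 member and 89 rows. LPS cells against 0 h gave 29 members that fell and none that rose (40.5% and 11.4% of all rows). Both this and the comparison with mock cells use the same late LPS libraries. An F test over the 6 times, in either direction, called 31 members (57.2% of all rows). With the replicate block these counts were 32 that fell against 0 h (52.1% of all rows), with Smc4, Rfc1 and Pole3 added, and 36 in the F test (2533 of 3147 rows).

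**Figure D2:**
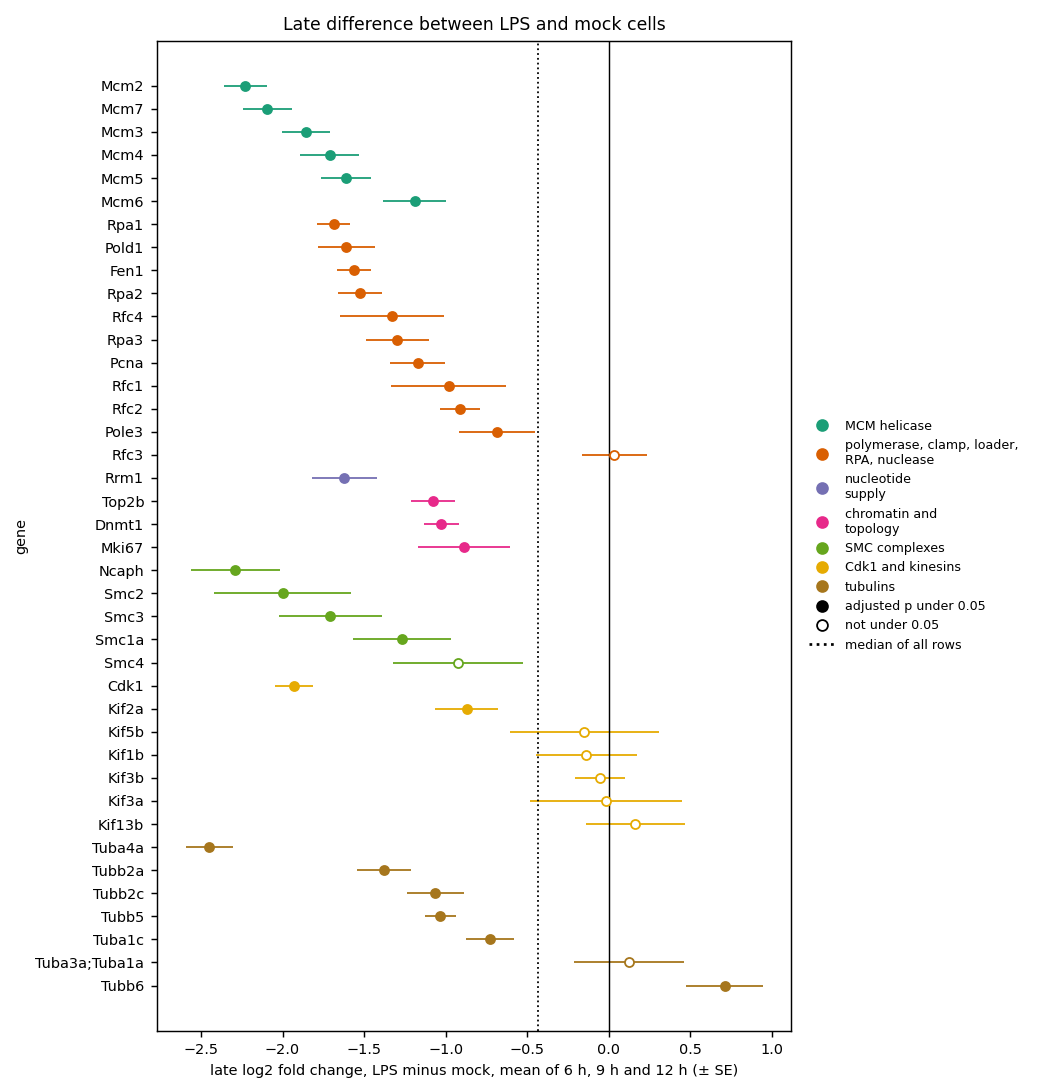
Points show the late log2 fold change of each gene on the log2(TPM + 1) scale, LPS minus mock, with its standard error, coloured by role and filled where the adjusted p was under 0.05. The dotted line is the median of all rows at -0.43. The 6 MCM genes all lie left of it between -2.23 and -1.19, and Tubb6 is the filled point on the right at 0.71.

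The MCM helicase, which unwinds DNA at the fork, fell as a whole: all 6 members fell at each time from 4 h. Mcm2 had 47.7 and 53.1 TPM at 0 h, 41.7 and 34.4 TPM in mock and 4.5 and 7.05 TPM in LPS cells at 4 h, and 30.8 and 33.5 TPM against 4.98 and 4.11 TPM at 12 h. LPS libraries of Mcm2 thus lay under every mock library, and its level at 12 h was 14.1% of mock. Its late log2 fold change was -2.23 ± 0.13 (SE; adjusted p = 3.7e-10). Mcm3, the subunit with the highest mock median over the late times (79.2 TPM), ranged from 16.6 to 25 TPM in the late LPS libraries against 65.7 to 86.4 TPM in mock. Mcm3 fell by 1.85 ± 0.15 on the log2 scale. Mcm6 fell least of the 6 (-1.19 ± 0.19), from 53 to 75.2 TPM in late mock to 19.9 to 34.7 TPM in late LPS libraries, and the groups again did not overlap. The late changes of Mcm7, Mcm4 and Mcm5 were -2.09, -1.71 and -1.61. After rescaling the 6 changes ran from -1.86 (Mcm2) to -0.79 (Mcm6), and all 6 kept their late call. At single times from 4 h on Mcm6 lost its call after rescaling at 6 h (-0.68, adjusted p = 0.11) and at 9 h (-0.74, adjusted p = 0.089). Summed over the subunits, late mock libraries held 316.7 to 359 TPM and late LPS libraries 72.7 to 116 TPM. Only Mcm2 and Mcm7 were called at 2 h, where they stood at 59.3% and 51.6% of mock, and both calls were lost after rescaling (adjusted p = 0.13 and 0.053). With the replicate block 4 of 6 were called.

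**Figure D3:**
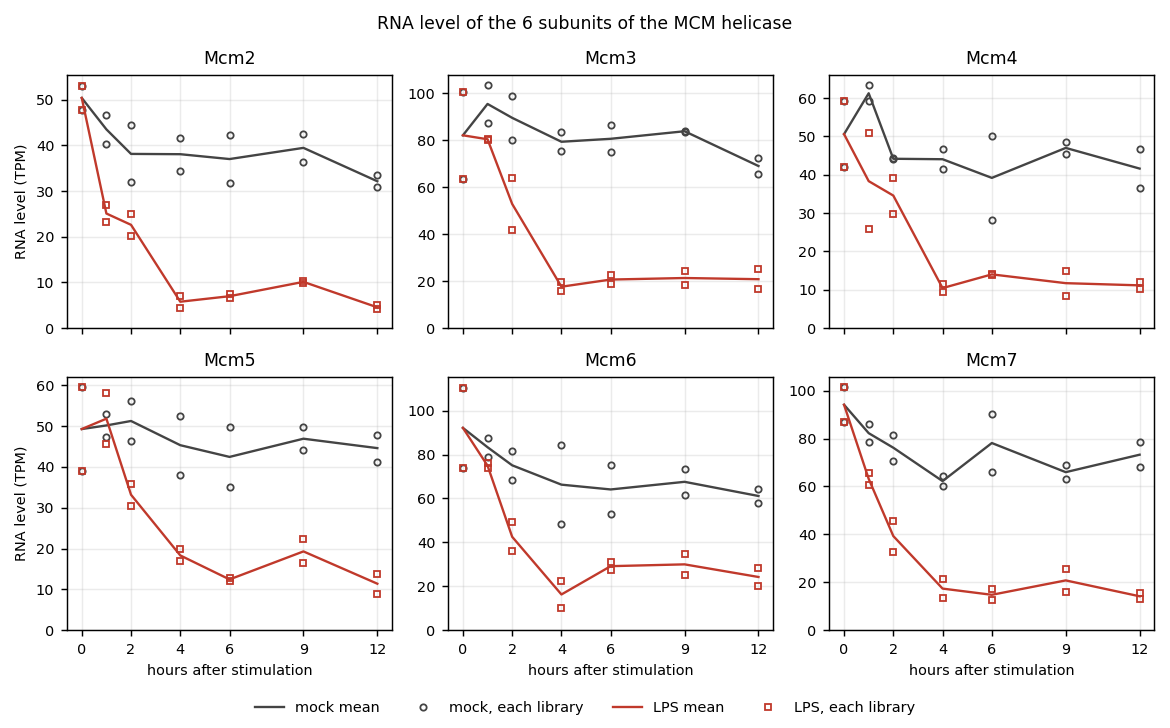
RNA level in TPM of the 6 MCM subunits against hours after stimulation, with each library as a symbol, group means as lines, and the 0 h libraries shared by both arms. LPS libraries lie below mock libraries in all 6 panels from 4 h on, as with Mcm2 at 4.5 and 7.05 TPM against 41.7 and 34.4 TPM at 4 h.

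Of the 11 genes for polymerases, clamp, clamp loader, RPA and nuclease, 10 fell late. All 3 RPA subunits, which bind single-stranded DNA, fell: Rpa1 had 71.3 and 71 TPM in mock and 24 and 23.8 TPM in LPS cells at 12 h (late change -1.69 ± 0.10, adjusted p = 2.9e-10), and Rpa2 and Rpa3 changed by -1.53 and -1.30. Pold1, the catalytic subunit of polymerase delta, was among the earliest to fall, with 26.9 and 26.5 TPM in mock against 9.74 and 6.62 TPM in LPS cells at 2 h (30.6% of mock) and a late change of -1.61. Fen1, the nuclease that trims Okazaki fragments, fell by 1.56 ± 0.10. Pcna, the sliding clamp and the most abundant gene of this group, moved later. It stood at 559 and 471 TPM in mock and 570 and 618 TPM in LPS cells at 2 h, so the LPS values were as high as those of mock. At 12 h Pcna had 593 and 471 TPM against 236 and 166 TPM, and its late change was -1.17 ± 0.17 (adjusted p = 1.5e-05). The call for Pcna began at 9 h, and with the replicate block at 4 h (adjusted p = 0.009).

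The clamp loader subunits differed among themselves. Rfc4, Rfc1 and Rfc2 fell late, by 1.33, 0.98 and 0.91 on the log2 scale, whereas Rfc3 was at 0.03 ± 0.20 (adjusted p = 0.88). Rfc2 was already low at 2 h (45.4 and 39.7 TPM against 93.9 and 93.4 TPM). The late call of Rfc1 was lost after both rescalings and in 6 of the fits that left out 1 library (adjusted p 0.061 to 0.077). Pole3, a small histone-fold subunit of polymerase epsilon, fell by 0.68 ± 0.23 (adjusted p = 0.018). Rescaling took Pole3 to -0.28 (adjusted p = 0.36), and 4 of those fits also ended its call. The libraries concerned were, for Rfc1 and Pole3 alike, mock replicate 2 and LPS replicate 1 of 6 h and of 9 h, and for Rfc1 those of 12 h too. After rescaling Rfc3 stood at 0.43 (adjusted p = 0.075), and the other 8 members of this group ran from -1.29 (Rpa1) to -0.51 (Rfc2), with Pcna at -0.76.

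Rrm1, the large subunit of the enzyme that makes deoxyribonucleotides, had 57.5 and 45.1 TPM in mock and 15.6 and 10.7 TPM in LPS cells at 12 h. Its LPS level was 38.2% of mock at 4 h and 25.6% at 12 h, and its late change was -1.62 ± 0.20 (-1.23 after rescaling). Its partner Rrm2 and thymidylate synthase Tyms were not analysed here in RNA. All 3 members of chromatin and topology fell late. Top2b, a DNA topoisomerase that also acts in cells that do not divide, fell by 1.08 ± 0.14 (-0.69 after rescaling), with 9.73 to 15.8 TPM in late LPS and 24.6 to 36 TPM in late mock libraries. Dnmt1, which copies DNA methylation to the new strand, fell by 1.03 ± 0.11 (-0.63). Mki67, a coat protein of mitotic chromosomes widely used to mark dividing cells, fell by 0.89 ± 0.28 (adjusted p = 0.012), and this call was lost after rescaling (-0.49, adjusted p = 0.17).

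Among the SMC genes the condensin subunits Ncaph and Smc2 had the largest late changes. Ncaph, listed as mKIAA0074;Ncaph, had 21 and 18.7 TPM in mock and 5.86 and 2.86 TPM in LPS cells at 12 h. No LPS library of Ncaph from 4 h on reached 6 TPM, and its late change of -2.29 ± 0.27 became -1.52 with a pseudocount of 5. Smc2 had 137 and 236 TPM in mock and 17.8 and 62.4 TPM in LPS cells at 12 h. The 6 late LPS libraries of Smc2 (17.8 to 86.2 TPM) lay below the 6 mock libraries (123 to 249 TPM), and the change was -2.00 ± 0.42. Smc4, the partner of Smc2 in condensin and the most abundant SMC gene, had 278 and 369 TPM against 97.7 and 220 TPM at 12 h. Its late ranges overlapped (176 to 466 TPM in mock and 81.5 to 267 TPM in LPS), and the change of -0.92 ± 0.40 missed the threshold (adjusted p = 0.053) but passed with the replicate block (adjusted p = 0.0001). It also passed in 4 of the fits that left out 1 library (-1.21 to -1.10). The cohesin subunits Smc3 and Smc1a, which hold sister chromatids together and also form chromatin loops, fell by 1.71 ± 0.32 and 1.27 ± 0.30. After rescaling the changes were -1.96 for Ncaph, -1.60 for Smc2, -1.31 for Smc3 and -0.87 for Smc1a, all called, and -0.52 for Smc4. The other condensin subunits were not analysed here in RNA.

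Cdk1, the kinase that starts mitosis, fell further than any kinesin. It had 80.9 and 80 TPM in mock and 55.9 and 54.1 TPM in LPS cells at 2 h, 75.4 and 92.8 TPM against 30.3 and 32.1 TPM at 4 h, and 74.5 and 69.5 TPM against 15 and 9.16 TPM at 12 h. The LPS level of Cdk1 went down from 37.1% of mock at 4 h to 35.8%, 27% and 16.8% at the later times. Its late change was -1.93 ± 0.12 (adjusted p = 4.2e-10; -1.54 after rescaling). Of the 6 kinesins listed, a family of proteins that act on microtubules, only Kif2a fell late (-0.87 ± 0.19). Kinesins such as Kif11, Kif20a, Kif22 and Kif23 have footprint values but were not analysed here in RNA, so these 6 do not stand for the family. Kif2a shortens microtubules at the spindle, and its call was lost after rescaling (-0.48, adjusted p = 0.053). The other 5, known for carrying cargo (Kif5b, Kif1b and Kif13b) or as the motor pair of kinesin-2 (Kif3a and Kif3b), ran from -0.15 to 0.16, with adjusted p of 0.65 to 0.98 (0.26 to 0.52 after rescaling, none called). Kif5b, the most abundant, had 215 and 375 TPM in mock and 120 and 389 TPM in LPS cells at 12 h, which overlap. The wide errors of Kif5b (0.45) and Kif3a (0.47) do not allow these values to be read as equal between arms. Kif3b alone of the 5 was called at single times: it had 42.9 and 46.6 TPM against 20.6 and 20.8 TPM at 2 h (-1.07 ± 0.26, adjusted p = 0.011), was still called at 4 h (but not after rescaling, with -0.27 and adjusted p = 0.55), and had 34.4 and 46 TPM against 46.5 and 50.7 TPM at 12 h. Kif13b, listed as Kif13b;mKIAA0639, had 4.85 and 8.55 TPM against 9.12 and 22.4 TPM at 4 h, a difference of 1.04 that was called only with the replicate block (adjusted p = 0.13 and 0.014).

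The 7 tubulin rows split into 5 that fell, 1 that rose and 1 that did neither. Tubulin paralogs are nearly identical in sequence and the reads were short, so reads may be split between them and single rows are uncertain. Tuba4a changed most, with 82.3 and 81.2 TPM in mock and 8.77 and 11.4 TPM in LPS cells at 6 h. The level of Tuba4a was 12.3% of mock at 6 h and 32.2% at 12 h, and its late change of -2.45 ± 0.14 (adjusted p = 3.1e-10) was the lowest of all 40 members on the deposited scale. Tubb5, the most abundant member of all, had 834 and 1075 TPM in mock and 544 and 602 TPM in LPS cells at 12 h and fell by 1.03 ± 0.09 late. Tubb2a, Tubb2c (now named Tubb4b) and Tuba1c changed by -1.38, -1.06 and -0.73. Tubb6 went the other way. It had 96.5 and 43.7 TPM in mock and 147 and 98.8 TPM in LPS cells at 9 h, and 81.2 and 56 TPM against 167 and 107 TPM at 12 h. Tubb6 rose late by 0.71 ± 0.23 (adjusted p = 0.014), although the late ranges overlapped (43.7 to 116 TPM in mock and 98.8 to 167 TPM in LPS). This call was lost without mock replicate 2 of 9 h (0.52, adjusted p = 0.059) and was 1.12 after rescaling. The merged row Tuba3a;Tuba1a had 201 and 143 TPM in mock and 339 and 173 TPM in LPS cells at 12 h, with a late change of 0.12 ± 0.34 (adjusted p = 0.76). After rescaling Tuba4a, Tubb2a, Tubb2c and Tubb5 still fell (-2.06, -0.98, -0.66 and -0.62), and the call of Tuba1c was lost (-0.32, adjusted p = 0.064).

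The members did not all follow 1 time course. Of the 29 called at any single time, 10 were first called at 2 h, 16 at 4 h, 2 at 9 h (Pcna and Smc2) and 1 at 12 h (Smc1a). With the replicate block 36 were called, 7 first at 1 h, 13 at 2 h, 12 at 4 h, 3 at 6 h and 1 at 9 h, and Pcna and Smc2 moved to 4 h and Smc1a to 6 h. After rescaling Smc2 (9 h and 12 h) and Smc1a (12 h) lost these calls. The late difference was further below mock than the early one (the mean of 1 h and 2 h) for 18 members and above it for 1, Rfc3 (22.2% and 8.17% of all rows), and for 28 and 2 (Rfc3 and Tubb6) with the replicate block (37.2% and 11.9%). After rescaling the numbers were 14 and 2 (10.5% and 13.3%): Tubb2a, Tubb5, Kif2a and Smc1a lost their calls, and Kif3b joined Rfc3 (0.73, adjusted p = 0.045). Early, 11 members fell and none rose (9.72% and 8.39% of all rows), and with the replicate block 21 fell and 2, Mki67 and Kif13b, rose (19.4% and 14.2%). After rescaling 10 fell early and 1, Mki67, rose (1.09, adjusted p = 0.047; 6.26% and 9.95% of all rows). The largest shift was that of Mki67. It had 36.1 and 56.7 TPM in mock and 82.7 and 136 TPM in LPS cells at 1 h, so both LPS libraries were higher, and the difference of 1.21 ± 0.49 was called only with the replicate block (adjusted p = 0.19 and 0.001). At 12 h Mki67 had 36 and 61.8 TPM against 22.8 and 26 TPM. Late minus early it changed by -1.89 ± 0.45 (adjusted p = 0.0043). Rfc3 had the opposite order. It had 42.7 and 49.6 TPM in mock and 28.4 and 12.2 TPM in LPS cells at 1 h, and 42.3 and 28.3 TPM against 60.6 and 58.7 TPM at 6 h. Its early difference was -1.13 ± 0.25 (adjusted p = 0.004) and its late minus early change 1.16 ± 0.32 (adjusted p = 0.011).

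A contrast of the 12 h with the 4 h difference was chosen after the data were seen. In it 1 member fell, Cdk1 (-1.12 ± 0.29, adjusted p = 0.036), and 2 rose, Dnmt1 (1.07 ± 0.26, adjusted p = 0.029) and Tuba1c (1.33 ± 0.36, adjusted p = 0.049), against 1.02% and 2.76% of all rows. With the replicate block Kif3b was called too (0.99, adjusted p = 0.046; 4.67% and 7.31% of all rows), and after rescaling Tuba1c was not (1.25, adjusted p = 0.054). Dnmt1 was lowest at 4 h, with 9.74 and 9.79 TPM in LPS and 46.2 and 42 TPM in mock cells, and had 26.5 and 24 TPM against 50.4 and 52.5 TPM at 12 h. Tuba1c had 98.7 and 96.7 TPM against 337 and 229 TPM at 6 h and 217 and 213 TPM against 224 and 176 TPM at 12 h, where the arms overlapped. These 3 calls are weak: they were 0 in 6 and 1 in 2 of the fits that left out 1 of the 8 libraries (1 without LPS replicate 1 of 4 h or of 12 h, and 0 without any of the other 6), and 0 with a pseudocount of 5.

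**Figure D4:**
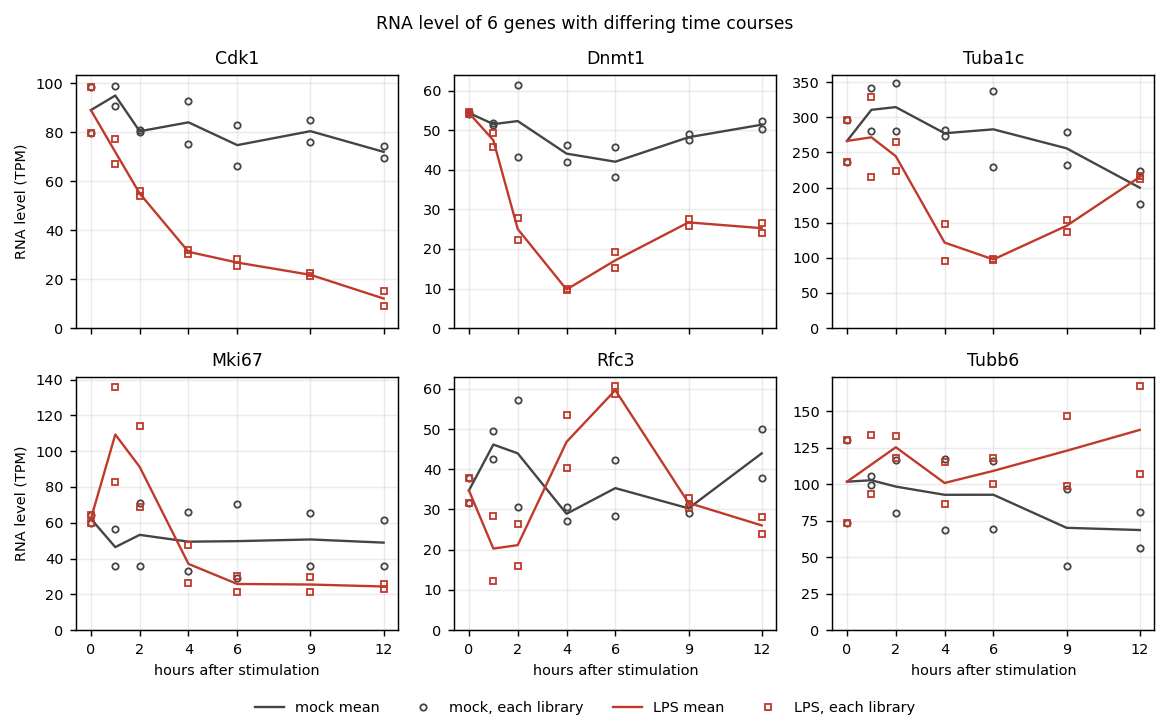
RNA level in TPM of 6 genes against hours after stimulation, with each library as a symbol, group means as lines, and the 0 h libraries shared by both arms. In LPS cells Cdk1 goes down to 15 and 9.16 TPM at 12 h, Dnmt1 has its low point of 9.74 and 9.79 TPM at 4 h, Tuba1c is back at 217 and 213 TPM at 12 h, Mki67 peaks at 1 h, Rfc3 at 6 h, and Tubb6 is highest at 12 h.

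Libraries also differed by replicate number, and the members did so unevenly. Replicate 2 was higher than replicate 1 by a mean of 1.16 on the log2 scale for Kif5b, 1.01 for Smc2, 1.00 for Kif3a and 0.97 for Smc4, with replicate 2 higher in 13 of 13 groups for Kif5b, Smc2 and Smc4 and in 12 for Kif3a. Tuba3a;Tuba1a, Rfc4 and Tubb6 were lower in replicate 2, by -0.81, -0.57 and -0.55. The median over the members was 0.00 and over all rows -0.07. Kif3a, Kif5b, Smc2 and Smc4 also had the 4 widest errors in the late comparison, and what sets the replicates apart was not tested.

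Further genes of the same pathways, from lists written from general knowledge, moved as follows in the late comparison, read without the replicate block. Of 65 other replication and S-phase genes 16 were listed, and 15 fell and none rose (median -1.21). None of the Orc, Gins or Prim genes sought was among the 16. Several of the 16 are enzymes of nucleotide synthesis, such as Cad, Ctps, Gart, Paics, Impdh2 and Umps. The lowest were Cad, which starts pyrimidine synthesis (-2.45 ± 0.28), and Ctps, which makes CTP (-2.34 ± 0.21). Ctps had 7.94 and 6.81 TPM in mock cells at 12 h and was listed at 1.53 and 0 TPM in LPS cells. The smallest changes among those called were those of the histone chaperone Rbbp4 (-0.59 ± 0.15) and the RNase H2 subunit Rnaseh2a (-0.83 ± 0.17). Topoisomerase Top1 did not pass (-0.21, adjusted p = 0.55). Of 75 other mitosis and cell cycle genes 20 rows were listed, and 19 fell and none rose (median -1.22). No cyclin, Aurora kinase or Cenp gene was among the 20. Many of them are general chromatin or nuclear genes, such as Ptma, Set, Hmgb1 and Ran, so this count does not stand for mitosis genes alone. Lamin B1, listed as AK079263;Lmnb1, had 67 and 66.3 TPM in mock and 9.66 and 12.5 TPM in LPS cells at 12 h (-2.21 ± 0.16), and the heterochromatin protein Cbx3 changed by -2.20 ± 0.21. The smallest changes called were those of the merged row Dctn5;Plk1 (-0.69), in which the dynactin gene and the mitotic kinase cannot be separated, and of Ptma (-0.84). The G1 kinase Cdk6 did not pass (0.09, adjusted p = 0.68).

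Of 12 cohesin partners 4 were listed, and Rad21, the ring-closing subunit (-0.63 ± 0.11), and Pds5a (-0.56 ± 0.16) fell. Of 39 microtubule folding, binding and motor genes 24 rows were listed, and 10 fell and 2 rose (median -0.33). The merged row Dctn5;Plk1 is counted among these 10 as well as in the mitosis list. The kinesin light chain Klc4 had 56.5 and 56.6 TPM in mock and 19.7 and 16.8 TPM in LPS cells at 12 h (-2.50 ± 0.12 late), and the gamma-tubulin row Tubg1;tubg1;Tubg2, from the centrosome, fell by 1.79 ± 0.37. The dynein genes Dncic2;Dync1i2 and Dync1h1 rose by 0.84 ± 0.32 and 0.72 ± 0.12. Of 26 cell cycle inhibitors and checkpoint genes 1 was listed, Cdkn1b (p27), which rose by 0.34 ± 0.14 late (adjusted p = 0.047). At 4 h Cdkn1b was called as lower in LPS cells (-0.84), and at 6 h and 9 h it was not called (0.15 and 0.10). It was called as higher at 12 h (0.78), with 50.1 and 69.7 TPM in mock and 109 and 95.8 TPM in LPS cells. All of the late counts stand against 47.7% of all rows that fell and 15.5% that rose. After median-ratio rescaling 12 of the 16 rows of the replication list and 14 of the 20 of the mitosis list fell. None rose (medians -0.84 and -0.82), and no cohesin partner was called. Of the microtubule genes 3 then fell and 6 rose and their median turned to 0.07, and Cdkn1b stood at 0.74. The sign of the microtubule median thus depended on which of these 2 scalings was used. The sign of the medians of the replication and mitosis lists did not.

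In unstimulated cells ribosomes were found on these mRNAs across a wide range. Footprint values are per length and normalized separately from RNA, so no test was made between the tables. Of the 74 rows 34 (45.9%) lay above the median of the footprint table, and the member median was 26.7 against 29.0 for all rows. Tubulins led, with Tuba1b at 1782 (mean of 2 libraries) and Tuba1c at 1664 and 1676. Next came Tuba1a with 1495 and 1441 and Tubb5 with 1431 and 1478, while Pcna had 535 and 662. Of the MCM subunits Mcm3 was highest (75.9 and 90.9) and Mcm2 lowest (39.7 and 40.9). Cdk1 had 124 and 140 and Ncaph 18.8 and 25.8. The kinesin Kif21b was the lowest member with a mean of 2.79. Replicate 2 was higher for 66 of 74 members (89.2%) against 62.4% of all rows. Of the 40 RNA members 37 have a footprint row of the same name. The other 3 (Kif3a, Pole3 and Tuba3a;Tuba1a) were paired with none, though a row named Tuba1a alone is among the 74.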

How the data were processed

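Bulk RNA of 26 libraries and ribosome footprints of 2 were used. RNA values are the authors' deposited TPM, for which the submitters' processing notes name Bowtie 0.12.7, RSEM 1.2.3 and mm9. Deposited footprint columns also sum to 1000000 and were read as TPM. The libraries were of poly(A) RNA and kept the strand, per the labels' protocols. The description of the 4 h samples names another hour than their titles, time fields and the table, which were followed. Both arms list the same 0 h values, which entered once. TPM keeps no read depth, so no interval or floor per sample could be given.

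A minimum of 1 TPM in 2 libraries removed none of the 3147 rows. Values were tested as log2(TPM + 1), a scale that understates changes of low genes, with limma 3.58.1 in R 4.3.3, with 13 group means, a variance trend and 13 residual df. A call is a Benjamini-Hochberg adjusted p under 0.05 over all rows. The script was tested on simulated data. Alternatives were quantile normalization, median-ratio rescaling, a block for the replicate number, pseudocounts of 0.1 and 5, no minimum or one of 10 TPM, fits with only the groups compared, and fits without each library. The titles number the replicates without saying what a number shares. Differences between replicates 2 and 1 correlated from 0.227 to 0.685 between LPS and mock cells over the 6 times. Over all pairs of groups the correlations ran from 0.050 to 0.834, so all were positive and they are not particular to equal times. A block takes out such a difference where all groups share it. The main fit has no block only because the labels do not say what a replicate number shares. A fit with the replicate number as a block was run beside it. For the members, blocked values are given where they change a call that the text discusses or the number of members called. The further lists and the markers were read without the block. Promoter windows are from RefSeq (GRCm38.p6), matched by gene symbol and not by coordinates, since the authors used mm9.

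In each role group the members with the lowest and highest late change and the most abundant are described by library, and every member that rose or missed the late threshold is named. Of each further list the 2 lowest and 2 highest called genes are named. Members and lists were chosen with earlier results of these data known. Python 3.11.15 and matplotlib 3.10.9 drew the figures.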

Additional observations from a re-analysis of the deposited data

Results flagged for a closer look

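The difference between LPS and mock cells changed with time beyond the test's threshold for 19 members between the early and the late times (limma, late minus early, log2). Among replication genes the values were Mcm2 -1.48, Mcm7 -1.43, Rrm1 -1.36, Mcm3 -1.35, Rpa1 -1.33, Mcm5 -1.32, Mcm4 -1.16, Pcna -1.06 and Fen1 -0.86. For these 9 the LPS level moved further below mock with time. Among chromosome and mitosis genes the values were Mki67 -1.89, Ncaph -1.80, Cdk1 -1.46, Smc1a -1.35, Top2b -1.34 and Kif2a -1.17. Mki67 is the 1 of these with both LPS libraries above both mock libraries at 1 h. The tubulins Tuba4a, Tubb2a and Tubb5 stood at -1.68, -0.89 and -0.52. Rfc3 went up, by 1.16. After median-ratio rescaling Tubb2a (-0.57), Tubb5 (-0.20), Kif2a (-0.86) and Smc1a (-1.04) were no longer called and Kif3b also went up (0.73), and with the replicate block Tubb6 did (0.47).

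Between 4 h and 12 h the difference changed for 3 members, in a contrast chosen after the data were seen. Cdk1 stood at -1.12, Dnmt1 at 1.07 and Tuba1c at 1.33. With the replicate block Kif3b was called as well (0.99), and after rescaling Tuba1c was not (1.25). Groups of 2 libraries are too small for a search for single deviating libraries.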

How the results depend on the processing

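Members called in the late comparison (32) stayed within 27 to 33 under the alternatives run and 29 to 33 with 1 library left out. The counts at 4 h, 6 h and 12 h, for the F test over all times, and for mock and LPS cells against 0 h stayed within 1.5 times of their main value. The counts at other times moved more. At 1 h the count of 0 became 2 with a pseudocount of 5, 1 after median-ratio rescaling, 1 after quantile normalization and 7 with the replicate block. At 2 h the count of 10 became 19 with the replicate block and 4 with only the compared groups, which took 9 h from 26 to 12 and the early count from 11 to 6. With the replicate block the early count was 23 and the late minus early count went from 19 to 30, and the latter was 12 after quantile normalization. The block also gave a late call to Smc4 (-0.92) and changed no other late call. The 3 calls of 12 h minus 4 h became 0 with a pseudocount of 5, 1 after quantile normalization and 0 with only the compared groups. With 1 library left out, in turn, the counts were 0 to 5 at 1 h, 5 to 9 at 2 h, 21 to 24 at 4 h, 20 to 24 at 6 h, 22 to 26 at 9 h, 20 to 23 at 12 h, 9 to 13 early, 18 to 22 late minus early and 0 to 1 for 12 h minus 4 h; the lone library left was taken to vary like the others. Signs turned for late changes near 0: Kif3a was 0.0065, 0.37 and 0.58 with a pseudocount of 5, median-ratio rescaling and quantile normalization, Kif1b 0.27 and Kif3b 0.35 after the former rescaling and 0.063 and 0.34 after the latter, and Kif5b 0.26 after median-ratio rescaling. Fits without 1 library spanned 0 for Kif13b (-0.10 to 0.43), Kif1b (-0.38 to 0.10), Kif3a (-0.34 to 0.31), Kif3b (-0.12 to 0.016), Kif5b (-0.46 to 0.16), Rfc3 (-0.060 to 0.13) and Tuba3a;Tuba1a (-0.078 to 0.32). After quantile normalization late calls of Mki67 (-0.44), Rfc1 (-0.66), Kif2a (-0.35), Rfc4 (-0.55) and Pole3 (-0.40) were lost and Kif13b gained one (0.96). The cause was not tested. Depth is unknown, and 2 libraries a group limit each single time.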
